A study of Arabidopsis thaliana with 9 samples.

Results

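WRKY transcription factors are a large plant family, and 50 of its Arabidopsis genes were followed here in RNA of samples labelled as seedlings. They were taken by gene identifier from a given list, which was chosen with earlier results of these data known. All 50 were found among the 29420 gene identifiers of the count table. Of these, 45 had enough reads to be tested among 20171 tested genes, while WRKY30, WRKY31, WRKY55, WRKY61 and WRKY72 had too few. The seedlings were of the Col ecotype and 10 days old, grown on MS-agar plates at 23 °C with 16 h of light per day. The 3 genotypes, with 3 biological replicates each, were wild type (WT), hda9-1 and pwr-2. The hda9-1 allele lies in HDA9, which encodes a histone deacetylase, and pwr-2 lies in POWERDRESS (PWR), which encodes a SANT-domain protein. The series title states that both proteins interact and promote deacetylation of histone H3. The questions are thus which WRKY transcripts stand above or below WT when either gene is mutated, and where hda9-1 and pwr-2 part from one another. Each mutant is represented by 1 allele.

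WRKY proteins carry a conserved DNA-binding domain named after its amino acid motif and bind the W-box, a short promoter element built around the bases TTGAC. The family is divided by domain number and zinc finger type into subgroups I, IIa to IIe and III. Many members act in immune responses, where mitogen-activated protein kinases phosphorylate several of them, and others act in leaf senescence, abiotic stress, nutrient supply and root or trichome development. WRKY53, a promoter of leaf senescence, has been described as a partner of HDA9 and PWR at W-box promoters. WRKY57, which delays jasmonate-induced senescence, has been described as a gene that the complex represses.

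The promoters of WRKY33, WRKY11, WRKY53 and WRKY54 are shown as examples. WRKY33 and WRKY11 rose in both mutants and hold W-box cores. WRKY53 is the described partner of HDA9 and PWR, and WRKY54 fell in both mutants and holds no core. These examples do not stand for all members, as the shares by call below show. Each is the 250 bases before the annotated gene start in RefSeq TAIR10.1, written 5′ to 3′ on the gene's strand, with TTGAC and its reverse complement GTCAA in capitals. The windows are chr2:16107985-16108234 on the plus strand for WRKY33, and chr4:15291935-15292184, chr4:12393983-12394232 and chr2:17002529-17002778 on the minus strand for WRKY11, WRKY53 and WRKY54.
WRKY33: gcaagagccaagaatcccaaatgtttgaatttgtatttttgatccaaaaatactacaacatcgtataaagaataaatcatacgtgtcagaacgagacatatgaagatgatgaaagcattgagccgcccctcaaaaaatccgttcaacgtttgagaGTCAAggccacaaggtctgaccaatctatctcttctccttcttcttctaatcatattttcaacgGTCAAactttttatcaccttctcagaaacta
WRKY11: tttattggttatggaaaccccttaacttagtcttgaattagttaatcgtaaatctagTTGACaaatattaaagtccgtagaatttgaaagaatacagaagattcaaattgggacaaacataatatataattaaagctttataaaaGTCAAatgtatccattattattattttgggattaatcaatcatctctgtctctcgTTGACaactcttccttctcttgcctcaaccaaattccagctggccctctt
WRKY53: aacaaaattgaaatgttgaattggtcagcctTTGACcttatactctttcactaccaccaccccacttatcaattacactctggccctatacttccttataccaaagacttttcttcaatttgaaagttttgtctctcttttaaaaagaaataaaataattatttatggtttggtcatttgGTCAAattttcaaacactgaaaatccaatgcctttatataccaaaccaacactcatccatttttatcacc
WRKY54: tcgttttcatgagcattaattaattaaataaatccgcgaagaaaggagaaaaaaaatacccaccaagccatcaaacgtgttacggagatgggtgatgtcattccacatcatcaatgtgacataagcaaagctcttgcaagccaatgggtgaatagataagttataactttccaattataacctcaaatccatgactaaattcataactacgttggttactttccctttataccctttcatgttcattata
The WRKY33 window holds 2 cores, WRKY11 holds 3, WRKY53 holds 2 and WRKY54 holds 0. Over the family, 27 of 50 members (54%) had at least 1 TTGAC on either strand of this window, against 44.9% of 27443 protein-coding genes. At least 2 cores stood in 14 members (28%), against 14.1% of all genes, and at least 3 in 5 members (10%), against 3.38%. Subgroup III held a core in 8 of 9 promoters and subgroup IIe in 1 of 6. Of the members called higher in hda9-1 or pwr-2, 7 of 16 had a core, and of those called lower, 2 of 5. Of the tested members called in neither, 15 of 24 had a core. WRKY32, lower in hda9-1, held 4 cores, while WRKY18, WRKY22 and WRKY48, higher in both mutants, held 0. These shares describe letters in a window and say nothing of binding.

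The libraries held 6450661 to 11150773 counts, and the smallest was hda9-1 replicate 3. The 50 WRKY genes together took 0.115% to 0.137% of a library. A floor of 3 reads corresponded to 0.259 to 0.492 CPM, the reads of a gene scaled for library depth, so members near this level could not be resolved. HDA9 transcripts stood at 38.0 ± 1.4 CPM in WT (SD, n = 3) and 7.04 ± 0.44 CPM in hda9-1. PWR transcripts stood at 140.7 ± 6.8 CPM in WT and 48.7 ± 7.4 CPM in pwr-2, so each mutant had low RNA of its own gene. Against WT, HDA9 was also called lower in pwr-2 and PWR higher in hda9-1, each by less than 1 on the log2 scale. Of 10 root markers, 7 had too few reads to be tested. Without SCR, which leaves also express, their summed level was 4.61 to 7.35 CPM in WT, 3.65 to 4.63 CPM in hda9-1 and 3.41 to 4.19 CPM in pwr-2. NRT2.1, a root nitrate transporter, had 48 reads over the WT libraries, 8 in hda9-1 and 16 in pwr-2, and passed the test in hda9-1 (log2 fold change -2.23, adjusted p = 0.0111). The remaining tested root markers, SCR and CASP1, passed the test against WT for neither mutant. Mean SCR levels were 73.6 (WT), 72.6 (hda9-1) and 76.7 CPM (pwr-2). For CASP1 these means were 1.89, 2.25 and 2.08 CPM. Apart from SCR, root transcripts were thus scarce in libraries labelled as seedlings. The 5 green tissue markers summed to 1814 to 1851 CPM in WT, 1959 to 2274 CPM in hda9-1 and 1973 to 2087 CPM in pwr-2. Every one of the 5 was higher in all libraries of both mutants than in all WT libraries, RBCS3B passing the test in both mutants and LHCB2.1 in pwr-2. Over all tested genes, such a separation held for 23.4% in hda9-1 and 25.6% in pwr-2. The part of these marker differences in the WRKY results was not tested. In bulk RNA, fewer cells of a type and less RNA per cell cannot be told apart.

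Per kilobase of exon, WRKY70 was the most abundant member in WT seedlings, at 51.7 ± 5.1 RPKM (CPM per kilobase of exon, SD, n = 3), and its libraries did not overlap those of the next gene. WRKY3 followed at 38.8 ± 1.2 RPKM, then WRKY15 at 36.8 ± 5.3, WRKY11 at 33.8 ± 2.4, WRKY1 at 32.8 ± 0.36 and WRKY33 at 27.6 ± 9.1 RPKM. From WRKY3 down to WRKY25 each neighbour in this order overlapped the next, so that their exact ranks were not resolved. At the other end lay WRKY55 at 0.378 ± 0.151 RPKM, WRKY31 at 0.281 ± 0.208, WRKY72 at 0.272 ± 0.049 and WRKY61 at 0.0488 ± 0.0503 RPKM. Subgroup IId, whose members bind calmodulin, held 6 of its 7 genes above 20 RPKM. Subgroup IIc stayed below 10 RPKM throughout, led by WRKY23 at 8.26 ± 1.73 RPKM. WRKY53 stood at 19.1 ± 2.3 RPKM and WRKY57 at 5.81 ± 0.65 RPKM.

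**Figure D1:**
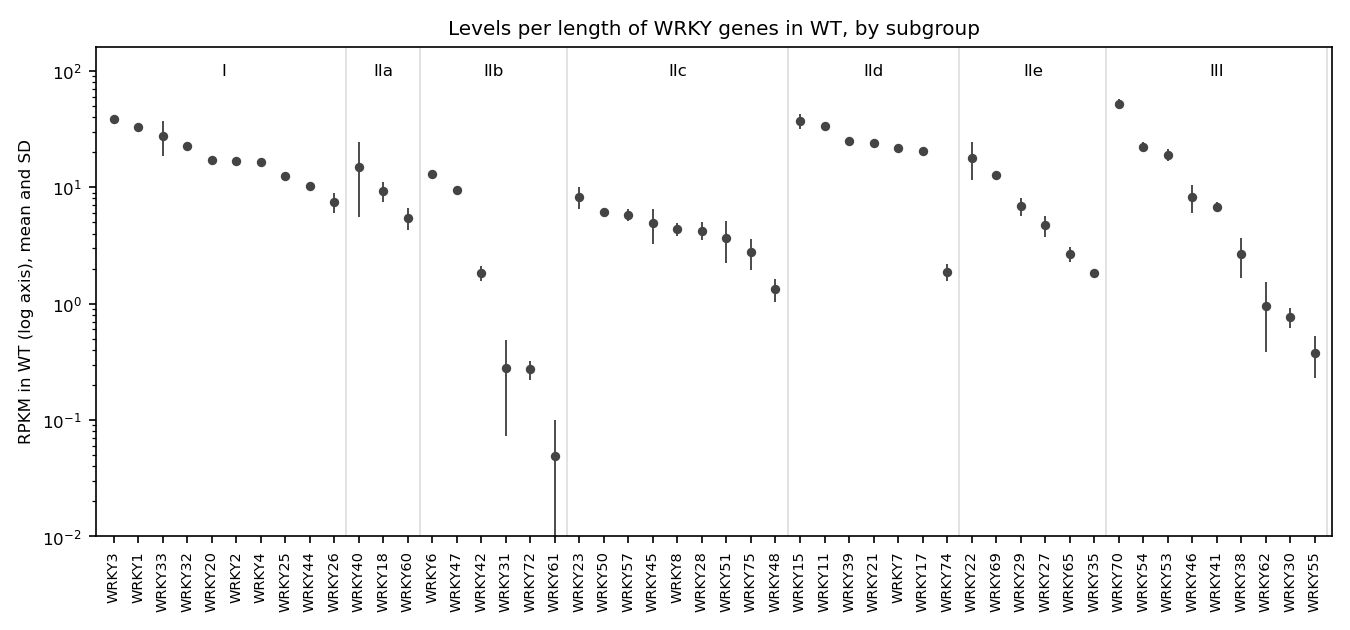
Level of each of the 50 WRKY genes in WT in RPKM on a log axis, grouped by subgroup. Points are means of 3 libraries and lines are 1 SD; WRKY70 is highest at 51.7 RPKM and WRKY61 lowest at 0.0488 RPKM.

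In hda9-1, 13 of the 45 tested members differed from WT at an adjusted p under 0.05 with edgeR's quasi-likelihood test, 10 of them higher and 3 lower. That is 28.9% of the tested members, against 34.2% of all tested genes (17.6% higher and 16.6% lower). The side of the background on which this share fell depended on the fit, as given below. In pwr-2, 14 members were higher and 4 lower, 40% of those tested, against a background of 31.4% (16% higher and 15.3% lower). Changes of at least 1 on the log2 scale made up 4 members in hda9-1 (8.89%, against 3.76% of all genes) and 8 in pwr-2 (17.8%, against 3.59%). The median log2 fold change of the 45 members was -0.10 in hda9-1 and 0.07 in pwr-2, against 0.00 and -0.01 over all genes. Median absolute changes were 0.29 and 0.30 for the members, against 0.18 and 0.17 for all genes. The libraries of hda9-1 and WT did not overlap for 12 higher and 9 lower members (26.7% and 20%, against 23.4% and 23% of all genes). In pwr-2 this held for 17 higher and 8 lower members (37.8% and 17.8%, against 25.6% and 24.7%). Both comparisons use the same WT libraries, so their values stand side by side below and are not independent.

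The count of lower members in hda9-1 depended on the fit and on single libraries. With replicate number as a block in the WT and hda9-1 libraries, which deviated together by number, 13 members were higher and 12 lower. That fit called 55.6% of the tested members and 47.1% of all genes, so calls increased over all genes as well. Without hda9-1 replicate 3 the lower count was 9, with 37% of the tested members and 29.8% of all genes called. Without WT replicate 2 it was 6, with 28.9% of the members and 24.3% of all genes called. For pwr-2, leaving out WT replicate 1 gave 9 higher and 2 lower members (24.4%, against 20.4% of all genes), and leaving out hda9-1 replicate 3 gave 7 lower. Upper-quartile scaling, which moved the median of all genes to -0.08 in both comparisons, lowered the share of called members that were higher from 76.9% to 43.8% in hda9-1 and from 77.8% to 60% in pwr-2. Over all called genes the same share moved from 51.6% to 32.9% and from 51.1% to 32.6%.

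**Figure D2:**
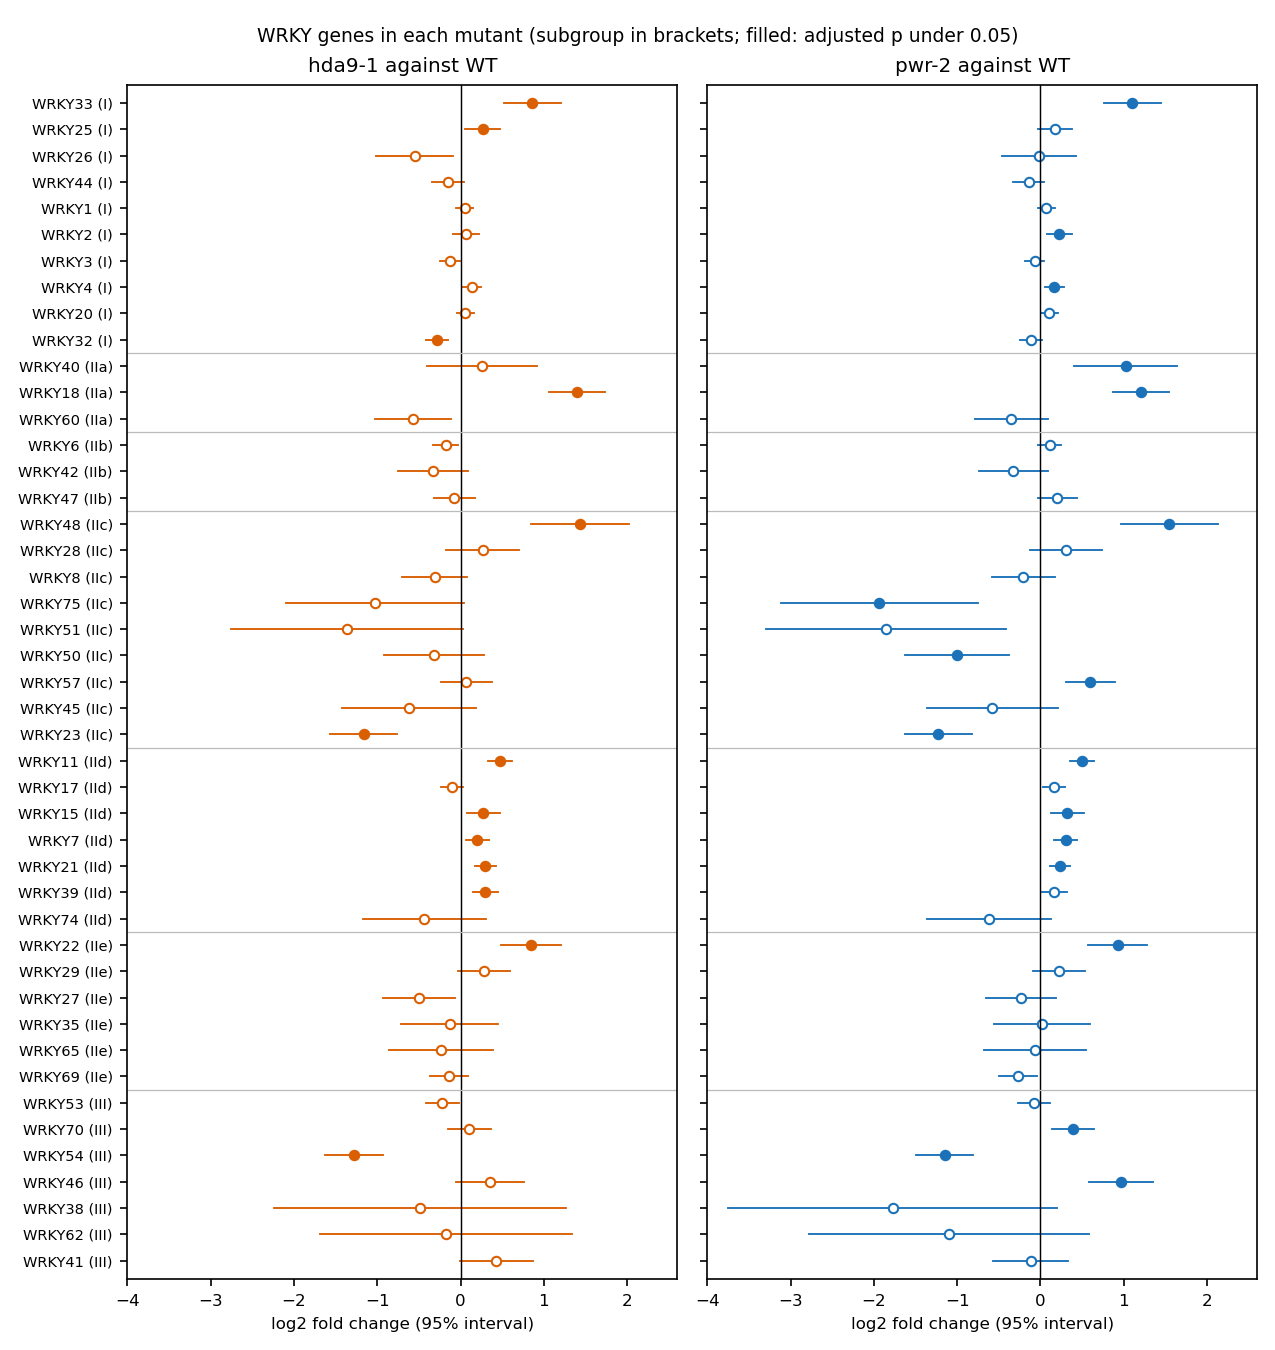
Log2 fold change against WT with 95% intervals for the 45 tested WRKY genes, hda9-1 on the left and pwr-2 on the right, ordered by subgroup. Filled points passed an adjusted p of 0.05; subgroup IId lies mostly right of 0, and WRKY23 and WRKY54 lie near -1.2 in both panels.

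Subgroup I, whose members carry a pair of WRKY domains, had 2 higher and 1 lower of 10 tested genes in hda9-1 and 3 higher in pwr-2. That is 30% called in each mutant, against 34.2% and 31.4% of all genes. WRKY33 (AT2G38470, chromosome 2, 16108235 to 16110766, plus strand), required for resistance to necrotrophic fungi and an activator of camalexin synthesis, changed most. Its level was 44.4, 46.3 and 77.3 CPM in WT, 95.5, 99.8 and 106.5 CPM in hda9-1, and 118, 115 and 124 CPM in pwr-2. Every mutant library exceeded every WT library, although WT replicate 3 stood well above the other WT libraries. The log2 fold change was 0.86 (SE 0.16, adjusted p = 0.00163) in hda9-1 and 1.105 (SE 0.15, adjusted p = 0.000408) in pwr-2. WRKY33 was called in both mutants under every alternative run, including each left-out library.

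WRKY32 (AT4G30935, chromosome 4, 15051764 to 15054107, minus strand) was the subgroup I gene that fell. It stood at 40.7, 40.7 and 37.8 CPM in WT and 33.3, 31.7 and 33.0 CPM in hda9-1, with no overlap. In pwr-2 it stood at 37.9, 37.6 and 34.8 CPM, and 1 of these libraries lay above the lowest WT library. Its log2 fold change was -0.29 (SE 0.06, adjusted p = 0.00388) in hda9-1 and -0.11 (SE 0.06, adjusted p = 0.158, and 0.038 with upper-quartile scaling) in pwr-2. WRKY4 (AT1G13960, chromosome 1, 4776283 to 4779420, plus strand), which acts with WRKY3 in resistance to necrotrophs, changed by little. WT libraries held 42.1, 43.6 and 42.9 CPM, hda9-1 libraries 46.2, 48.2 and 46.6 CPM, and pwr-2 libraries 49.2, 46.2 and 48.9 CPM. All mutant values lay above all WT values. The rise passed the test in pwr-2 (log2 fold change 0.17, SE 0.05, adjusted p = 0.0264) and missed it in hda9-1 (0.13, SE 0.05, adjusted p = 0.0622), where the blocked fit gave an adjusted p of 0.045. In pwr-2 the call was lost with DESeq2 (adjusted p = 0.164) and upper-quartile scaling (0.195), and without WT replicate 1 (0.0943), WT replicate 2 (0.0576), pwr-2 replicate 1 (0.0833) or pwr-2 replicate 3 (0.0692).

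The other subgroup I members gave a further rise in each mutant: WRKY25, a heat and salt response factor, in hda9-1 (log2 fold change 0.27, adjusted p = 0.0484) and WRKY2 in pwr-2 (0.23, adjusted p = 0.0297). Both rises were small. The WRKY25 call was lost with DESeq2 (adjusted p = 0.123), upper-quartile scaling (0.134) and the compared groups alone (0.0859). It was also lost when any library but WT replicate 1 or hda9-1 replicate 2 was left out (0.0609 to 0.194). The WRKY2 call was lost with DESeq2 (0.0623), upper-quartile scaling (0.149) and loess offsets (0.0689). It was also lost without WT replicate 1 or 3 or pwr-2 replicate 1 or 2 (0.0692 to 0.101). WRKY1, WRKY3, WRKY20 and WRKY44, the last a trichome and seed coat regulator, lay between -0.15 and 0.11 in both mutants without passing the test. WRKY3 was called lower in hda9-1 with upper-quartile scaling (-0.21, adjusted p = 0.00744), loess offsets (-0.22, 0.00617) and the block (-0.13, 0.0352). In pwr-2 it was called lower with upper-quartile scaling (-0.14, 0.0437) and loess offsets (-0.15, 0.0349). WRKY26 stood at -0.55 in hda9-1 (adjusted p = 0.0637, but 0.00404 with the block, 0.0359 without WT replicate 2 and 0.0315 without hda9-1 replicate 3) and at -0.02 in pwr-2.

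Subgroup IIa consists of WRKY18, WRKY40 and WRKY60, which bind one another and act in basal immunity and abscisic acid responses. WRKY18 (AT4G31800, chromosome 4, 15382777 to 15385100, plus strand) rose in both mutants. WT libraries held 19.1, 14.9 and 22.1 CPM, against 44.3, 43.6 and 59.8 CPM in hda9-1 and 36.7, 44.7 and 46.8 CPM in pwr-2. The lowest mutant library lay well above the highest WT library. The log2 fold change was 1.40 (SE 0.15, adjusted p = 5.44e-05) in hda9-1, the smallest adjusted p of any member, and 1.21 (SE 0.15, adjusted p = 0.000214) in pwr-2.

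WRKY40 (AT1G80840, chromosome 1, 30383561 to 30385499, plus strand) was uneven in WT, at 11.5, 13.8 and 34.2 CPM. It stood at 25.3, 21.0 and 22.5 CPM in hda9-1 and at 41.7, 38.2 and 37.2 CPM in pwr-2. The hda9-1 libraries lay within the WT range, while all pwr-2 libraries lay above both other genotypes. The log2 fold change was 0.26 (SE 0.30, adjusted p = 0.54) in hda9-1 and 1.02 (SE 0.28, adjusted p = 0.018) in pwr-2. WT replicate 3 decided the first value: without it the hda9-1 change was 0.85 (adjusted p = 0.000444). The pwr-2 call was lost without WT replicate 1 (adjusted p = 0.0641), WT replicate 2 (0.0797), pwr-2 replicate 1 (0.0596) or pwr-2 replicate 2 (0.0523), and with DESeq2 (0.068). WRKY60 (AT2G25000, chromosome 2, 10629662 to 10631413, plus strand) had the opposite sign. It stood at 9.29, 6.49 and 10.0 CPM in WT, 5.58, 4.64 and 7.38 CPM in hda9-1, and 6.52, 7.42 and 6.15 CPM in pwr-2, and the groups overlapped. Its log2 fold changes of -0.57 (SE 0.21, adjusted p = 0.0541) and -0.35 (SE 0.20, adjusted p = 0.207) did not pass the test. For hda9-1 the adjusted p was 0.00897 with the block, 0.0201 without WT replicate 2 and 0.0252 without hda9-1 replicate 3.

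**Figure D3:**
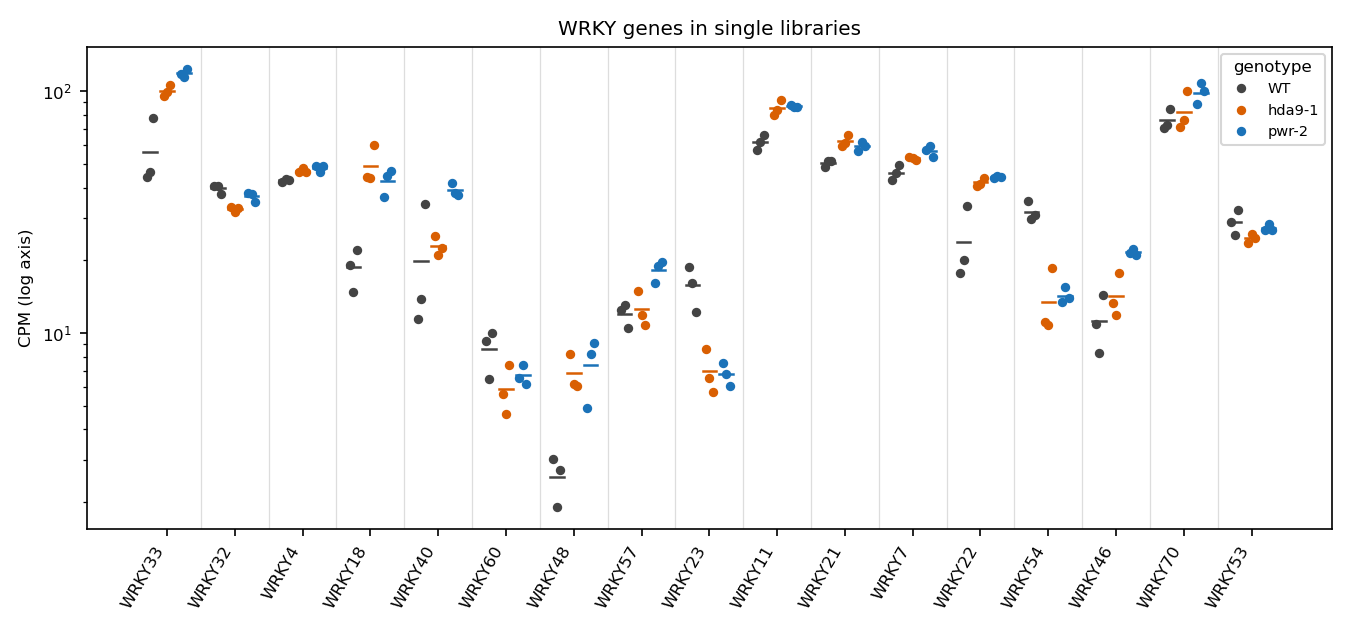
CPM on a log axis in each of the 9 libraries for 17 WRKY genes, 3 points per genotype with a line at the mean. WRKY33, WRKY18 and WRKY22 are higher in both mutants, WRKY23 and WRKY54 lower in both, and WRKY40 has 1 WT library at 34.2 CPM above the other WT libraries.

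Subgroup IIb had 0 calls among its 3 tested members in either mutant, against 34.2% and 31.4% of all genes. WRKY6, a senescence factor that also represses the phosphate exporter gene PHO1, stood at -0.18 in hda9-1 (adjusted p = 0.0577, and 0.0406 with the block) and at 0.11 in pwr-2 (adjusted p = 0.215). WRKY42 stood at -0.33 in both mutants and WRKY47 at -0.07 and 0.20, none past the test.

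In subgroup IIc, 1 of 9 tested members was higher and 1 lower in hda9-1, and 2 were higher and 3 lower in pwr-2. That is 22.2% and 55.6% called, against 34.2% and 31.4% of all genes. WRKY48 (AT5G49520, chromosome 5, 20090648 to 20093346, plus strand), a repressor of basal resistance to bacteria, was scarce but rose by the largest log2 fold change of any called member in both mutants. It stood at 3.03, 1.90 and 2.72 CPM in WT, 8.21, 6.19 and 6.07 CPM in hda9-1, and 4.92, 8.17 and 9.10 CPM in pwr-2. No mutant library fell into the WT range. The log2 fold changes were 1.44 (SE 0.27, adjusted p = 0.00191) and 1.55 (SE 0.27, adjusted p = 0.00146). WRKY23 (AT2G47260, chromosome 2, 19404802 to 19407098, minus strand), an auxin-responsive regulator of root and embryo development, fell in both mutants. Its libraries held 18.9, 16.2 and 12.3 CPM in WT, 8.64, 6.52 and 5.74 CPM in hda9-1, and 7.51, 6.77 and 6.03 CPM in pwr-2. All 6 mutant libraries lay below all WT libraries. The fall was -1.16 (SE 0.19, adjusted p = 0.000682) in hda9-1 and -1.23 (SE 0.19, adjusted p = 0.00067) in pwr-2. The root markers without SCR rested on few reads. Their sum was lower in every pwr-2 library than in every WT library, while hda9-1 reached 4.63 CPM against a WT minimum of 4.61 CPM. With SCR the sums overlapped, at 76.2 to 81.9 CPM in WT, 73.8 to 78.6 CPM in hda9-1 and 78.2 to 84.7 CPM in pwr-2. Of the tested root markers, only NRT2.1 passed the test, in hda9-1, while SCR and CASP1 did so in neither mutant. The part of these markers in the WRKY23 fall was not tested.

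WRKY57 (AT1G69310, chromosome 1, 26054275 to 26058383, minus strand) rose in pwr-2. It stood at 12.5, 13.1 and 10.5 CPM in WT, 15.0, 11.9 and 10.8 CPM in hda9-1, and 16.1, 19.0 and 19.7 CPM in pwr-2. The hda9-1 libraries overlapped WT, whereas the pwr-2 libraries lay above all others. The log2 fold change was 0.60 (SE 0.14, adjusted p = 0.00676) in pwr-2 and 0.07 (SE 0.14, adjusted p = 0.729) in hda9-1, where the 95% interval was -0.24 to 0.38. The pwr-2 call held in every alternative run, and the hda9-1 value passed the test in none. The other falls in pwr-2 rested on few reads. WRKY75, a factor of phosphate starvation and senescence, had 28, 17 and 22 reads in WT and 1, 9 and 5 in pwr-2 (log2 fold change -1.93, adjusted p = 0.0189). WRKY50, which acts in salicylic acid repression of jasmonate responses, had 74, 78 and 52 reads in WT and 19, 27 and 41 in pwr-2 (-1.002, adjusted p = 0.0214). Both genes were lower in every pwr-2 library than in any WT library. The WRKY75 call was lost with loess offsets (adjusted p = 0.0641) and without WT replicate 1 (0.0661), pwr-2 replicate 1 (0.0638) or pwr-2 replicate 3 (0.0552). The WRKY50 call was lost with loess offsets (0.058) and without WT replicate 1 (0.0658), WT replicate 2 (0.0597), pwr-2 replicate 1 (0.0812) or pwr-2 replicate 2 (0.0828). In hda9-1, WRKY75 stood at -1.03 (adjusted p = 0.126, and 0.0267 with the block) and WRKY50 at -0.32 (adjusted p = 0.391).

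Subgroup IId contained 5 higher members of 7 in hda9-1 and 4 of 7 in pwr-2, and no lower ones, with a median log2 fold change of 0.27 and 0.24. These higher calls are 71.4% and 57.1% of its tested members, against 17.6% and 16% of all genes called higher. With upper-quartile scaling WRKY17 was lower in hda9-1 (-0.18, adjusted p = 0.0446). WRKY11 (AT4G31550, chromosome 4, 15289788 to 15291934, minus strand), a repressor of basal resistance, had the clearest change. WT libraries held 57.0, 61.7 and 65.8 CPM, hda9-1 libraries 79.7, 83.7 and 92.5 CPM, and pwr-2 libraries 88.0, 86.1 and 86.3 CPM. The groups were well apart. The log2 fold changes were 0.47 (SE 0.07, adjusted p = 0.000296) and 0.50 (SE 0.07, adjusted p = 0.000255). WRKY21 (AT2G30590, chromosome 2, 13033418 to 13035797, plus strand), another calmodulin-binding type, rose less. It stood at 48.6, 51.4 and 51.6 CPM in WT, 59.6, 61.1 and 66.1 CPM in hda9-1, and 56.9, 61.8 and 59.6 CPM in pwr-2. Again no mutant library reached down to the WT range. The changes were 0.30 (SE 0.06, adjusted p = 0.0022) and 0.24 (SE 0.06, adjusted p = 0.00891).

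WRKY7 (AT4G24240, chromosome 4, 12571538 to 12573783, plus strand), which binds calmodulin, followed the same order. Its level was 42.8, 45.8 and 49.7 CPM in WT, 53.4, 53.1 and 52.0 CPM in hda9-1, and 57.0, 59.2 and 53.7 CPM in pwr-2, with no overlap between WT and either mutant. The log2 fold change was 0.20 (SE 0.06, adjusted p = 0.0273) in hda9-1 and 0.30 (SE 0.06, adjusted p = 0.004) in pwr-2. The hda9-1 call was lost with DESeq2 (adjusted p = 0.0897), with upper-quartile scaling (0.156) and with loess offsets (0.058). It was also lost without WT replicate 1 (0.132), WT replicate 2 (0.0896), hda9-1 replicate 1 (0.0655) or hda9-1 replicate 2 (0.078). WRKY39, a heat response factor, was higher in hda9-1 (0.30, adjusted p = 0.00577) and stood at 0.17 in pwr-2 (adjusted p = 0.079, and 0.0298 without pwr-2 replicate 1). WRKY15 rose by 0.27 (adjusted p = 0.0389) and 0.32 (adjusted p = 0.0188). Its hda9-1 call was lost with DESeq2 (0.0572), upper-quartile scaling (0.101), loess offsets (0.0683) and the compared groups alone (0.0739). The hda9-1 call was also lost when any library but WT replicate 3 or hda9-1 replicate 2 was left out (0.0522 to 0.147). Its pwr-2 call was lost without WT replicate 1 or 2 or pwr-2 replicate 1 or 2 (0.0508 to 0.0752). WRKY17, which acts with WRKY11, stood at -0.10 in hda9-1 and 0.16 in pwr-2 (adjusted p = 0.0523, and 0.0454 or 0.0467 without WT replicate 3 or hda9-1 replicate 3), and WRKY74 at -0.44 and -0.62, none past the test.

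In subgroup IIe, 1 of 6 members passed the test in each mutant (16.7%, against 34.2% and 31.4% of all genes). It was WRKY22 (AT4G01250, chromosome 4, 522530 to 524249, minus strand), a factor of the flagellin response below the mitogen-activated protein kinases. Its libraries held 17.7, 20.1 and 33.4 CPM in WT, 40.8, 41.3 and 43.9 CPM in hda9-1, and 43.9, 44.8 and 44.0 CPM in pwr-2. WT replicate 3 was again the highest WT library, and it still lay below every mutant library. The log2 fold changes were 0.85 (SE 0.17, adjusted p = 0.00249) and 0.93 (SE 0.16, adjusted p = 0.0017). WRKY29, placed beside WRKY22 in that pathway, stood at 0.28 and 0.22 (adjusted p = 0.146 and 0.245), the first with an adjusted p of 0.0436 without WT replicate 3. WRKY27 stood at -0.50 in hda9-1 (adjusted p = 0.0714, but 0.0248 with the block and 0.0469 without WT replicate 3) and at -0.24 in pwr-2. WRKY35, WRKY65 and WRKY69 lay between -0.26 and 0.01 in both mutants, and WRKY69 passed the test in pwr-2 without hda9-1 replicate 1 (adjusted p = 0.0465).

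Subgroup III includes the senescence and salicylic acid factors. In hda9-1, 1 of 7 tested members was lower and 0 higher, and in pwr-2, 2 were higher and 1 lower. That is 14.3% and 42.9% called, against 34.2% and 31.4% of all genes. WRKY54 (AT2G40750, chromosome 2, 17000419 to 17002528, minus strand), which with WRKY70 restrains leaf senescence, fell in both mutants. It stood at 35.2, 29.6 and 30.7 CPM in WT, 11.2, 10.8 and 18.5 CPM in hda9-1, and 13.4, 15.5 and 14.0 CPM in pwr-2. All mutant libraries lay far below WT, and hda9-1 replicate 3 was the highest of them. The log2 fold changes were -1.28 (SE 0.16, adjusted p = 0.000138) and -1.15 (SE 0.16, adjusted p = 0.000329). WRKY70 itself (AT3G56400, chromosome 3, 20908711 to 20910623, minus strand) lay on the other side in pwr-2. It stood at 70.9, 72.4 and 84.7 CPM in WT, 71.3, 76.0 and 100.2 CPM in hda9-1, and 88.6, 107.8 and 100.1 CPM in pwr-2. The hda9-1 libraries overlapped WT and the pwr-2 libraries lay above it. The rise in pwr-2 was 0.39 (SE 0.11, adjusted p = 0.0243), against 0.11 (SE 0.12, adjusted p = 0.511) in hda9-1. The pwr-2 call was lost without WT replicate 1 (adjusted p = 0.0793), WT replicate 2 (0.0765), pwr-2 replicate 2 (0.103) or pwr-2 replicate 3 (0.056).

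WRKY46 (AT2G46400, chromosome 2, 19043411 to 19044955, minus strand), which acts with WRKY54 and WRKY70 in brassinosteroid and drought responses, rose in pwr-2. Its libraries held 10.9, 8.30 and 14.4 CPM in WT, 13.3, 11.9 and 17.7 CPM in hda9-1, and 21.5, 22.4 and 21.1 CPM in pwr-2. The pwr-2 libraries were close together and above all others, and the hda9-1 libraries overlapped WT. The log2 fold change was 0.97 (SE 0.18, adjusted p = 0.00207) in pwr-2. In hda9-1 it was 0.35 (SE 0.19, adjusted p = 0.169), which became 0.36 (adjusted p = 0.0164) with the block and 0.55 (adjusted p = 0.031) without WT replicate 3. WRKY53 (AT4G23810, chromosome 4, 12392370 to 12393982, minus strand) passed the test in neither mutant. It stood at 28.8, 25.5 and 32.4 CPM in WT, 23.7, 25.7 and 24.8 CPM in hda9-1, and 26.8, 28.2 and 26.6 CPM in pwr-2, and the groups overlapped. The log2 fold changes were -0.22 (SE 0.09, 95% interval -0.41 to -0.02, adjusted p = 0.0761) and -0.08 (SE 0.09, 95% interval -0.27 to 0.11, adjusted p = 0.512). For hda9-1 the adjusted p was 0.0418 with the block, 0.0242 without WT replicate 2 and 0.0228 with upper-quartile scaling. Of the WRKY53 exon bases, 20.5% overlap a gene on the other strand, and the counting's strand setting is not given in the sources used here. The same limit holds for WRKY41 (41.7%), WRKY69 (21.1%), WRKY29 (18%) and WRKY61 (11.5%).

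Several salicylic acid-linked members had few reads and spread widely among replicates. WRKY38, which with WRKY62 restrains basal defence, had 35, 26 and 41 reads in WT, against 12, 0 and 43 in the hda9-1 libraries and 4, 17 and 5 in those of pwr-2. WRKY51, which acts with WRKY50, had 47, 22 and 35 reads in WT, against 15, 1 and 16 in the hda9-1 libraries and 2, 16 and 7 in those of pwr-2. WRKY62 had 13, 4 and 13 reads in WT, against 6, 2 and 13 in the hda9-1 libraries and 4, 6 and 2 in those of pwr-2. Within hda9-1, replicate 2 was the lowest library for all 3 genes and replicate 3 the highest. The salicylic acid marker PR1, with 401, 162 and 330 reads in WT and 69, 1 and 260 in hda9-1, had the same order of hda9-1 libraries, and so did PAD3 with 67, 2 and 97. In pwr-2, PR1 had 95, 128 and 33 reads and PAD3 had 30, 16 and 7. The part of that spread in the WRKY values was not tested. WRKY51 stood at -1.37 (adjusted p = 0.118) and -1.85 (adjusted p = 0.0509), WRKY38 at -0.48 (adjusted p = 0.674) and -1.78 (adjusted p = 0.154). With hda9-1 replicate 3 left out, WRKY38 passed the test at -2.37 in hda9-1 (adjusted p = 0.0361) and at -1.77 in pwr-2 (adjusted p = 0.0419), and WRKY51 passed it at -1.85 in pwr-2 (adjusted p = 0.0374). WRKY51 also passed it in pwr-2 without WT replicate 2 (0.0423), hda9-1 replicate 2 (0.0218) or pwr-2 replicate 2 (0.0468), and in hda9-1 with the block (0.00466).

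**Figure D4:**
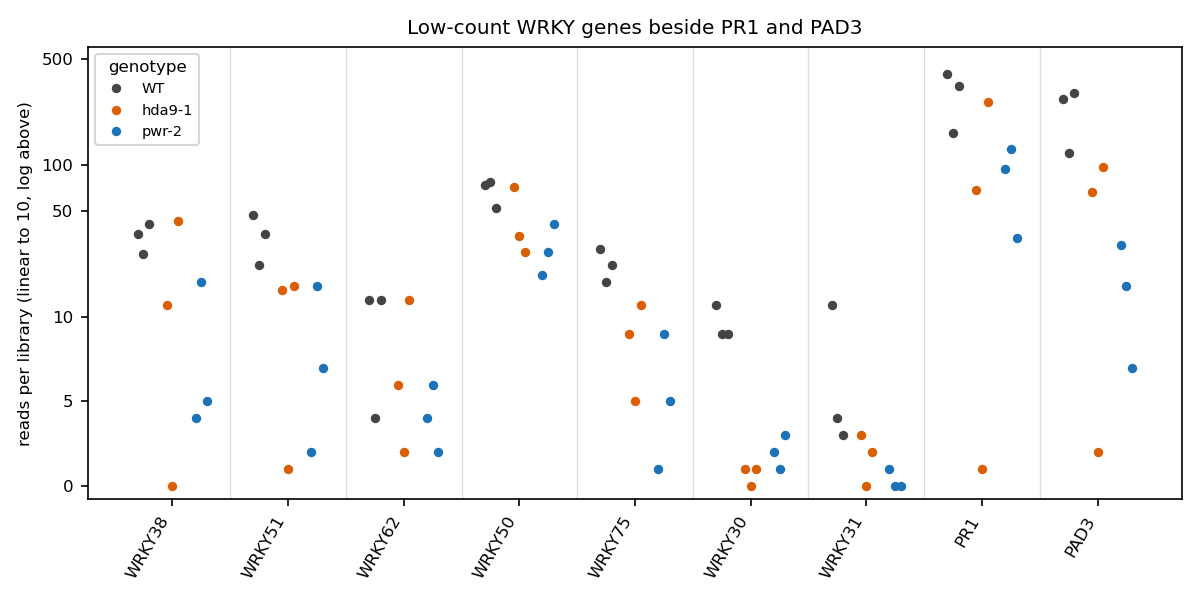
Reads per library for 7 low-count WRKY genes and for PR1 and PAD3, on an axis that is linear to 10 reads and logarithmic above, 3 points per genotype. WRKY30 has 9 to 12 reads in WT and 0 to 3 in the mutants, and hda9-1 replicate 2 has 0 reads of WRKY38 and 1 of PR1.

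Among the 5 members with too few reads to be tested, WRKY30, an early stress-response gene of subgroup III, had 12, 9 and 9 reads in WT, against 1, 0 and 1 in the hda9-1 libraries and 2, 1 and 3 in those of pwr-2. The ratio of its summed, depth-scaled reads to WT was 0.0827 in hda9-1 (95% counting interval 0.00958 to 0.326) and 0.233 in pwr-2 (0.0794 to 0.57). With no filter on low counts, edgeR gave adjusted p-values of 0.00348 and 0.0218. WRKY31, a subgroup IIb gene, had 12, 4 and 3 reads in WT and 1, 0 and 0 in pwr-2, a ratio of 0.0614 (0.00148 to 0.386, adjusted p = 0.0301 without the filter). In hda9-1 it had 3, 0 and 2 reads, a ratio of 0.327 (0.0953 to 0.904, adjusted p = 0.206 without the filter). WRKY55 and WRKY72 had 14 and 17 reads over the WT libraries, and WRKY61 had 3. Their ratios in hda9-1 and pwr-2 had adjusted p-values of 0.122 to 0.93 without the filter.

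Between the mutants, edgeR called 0 of 45 members, against a background of 0.421% of all genes (0.312% higher and 0.109% lower), and DESeq2 also called 0. Over all genes, 0.0942% were called with a change of at least 1 on the log2 scale. At an unadjusted p under 0.05, 12 members differed, 10 higher and 2 lower in pwr-2 (26.7%, against 13.5% of all genes). In 12 members every pwr-2 library lay above every hda9-1 library (26.7%, against 9.16% of all genes), and in 1, WRKY39, every one lay below (2.22%, against 8.7%). The largest differences toward pwr-2 were those of WRKY40, at 0.76 (95% interval 0.14 to 1.38, adjusted p = 0.267), and WRKY46, at 0.62 (0.24 to 1.01, adjusted p = 0.152). WRKY57 differed by 0.53 (0.23 to 0.83, adjusted p = 0.122), WRKY6 by 0.29 (0.14 to 0.44, adjusted p = 0.089) and WRKY17 by 0.27 (0.13 to 0.40, adjusted p = 0.0845). WRKY41 lay on the other side at -0.55 (-0.99 to -0.11, adjusted p = 0.264), and it was not the largest difference there. Members with few reads also lay on that side without passing the test. Over the alternatives, WRKY50 ranged from -1.01 to -0.29 (main adjusted p = 0.352) and WRKY75 from -1.57 to -0.40 (0.568). WRKY38 ranged from -2.17 to 0.60 (0.607). WRKY40 passed the test when the 2 mutants were fitted alone (adjusted p = 0.00286) and without WT replicate 3 (0.0069). Genes that rose or fell in both mutants had intervals that included 0: WRKY33 at 0.24 (-0.08 to 0.57), WRKY18 at -0.18 (-0.49 to 0.12), WRKY48 at 0.11 (-0.41 to 0.64), WRKY23 at -0.06 (-0.51 to 0.38) and WRKY54 at 0.13 (-0.26 to 0.51). WRKY53 differed by 0.14 (-0.06 to 0.34, adjusted p = 0.538).

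**Figure D5:**
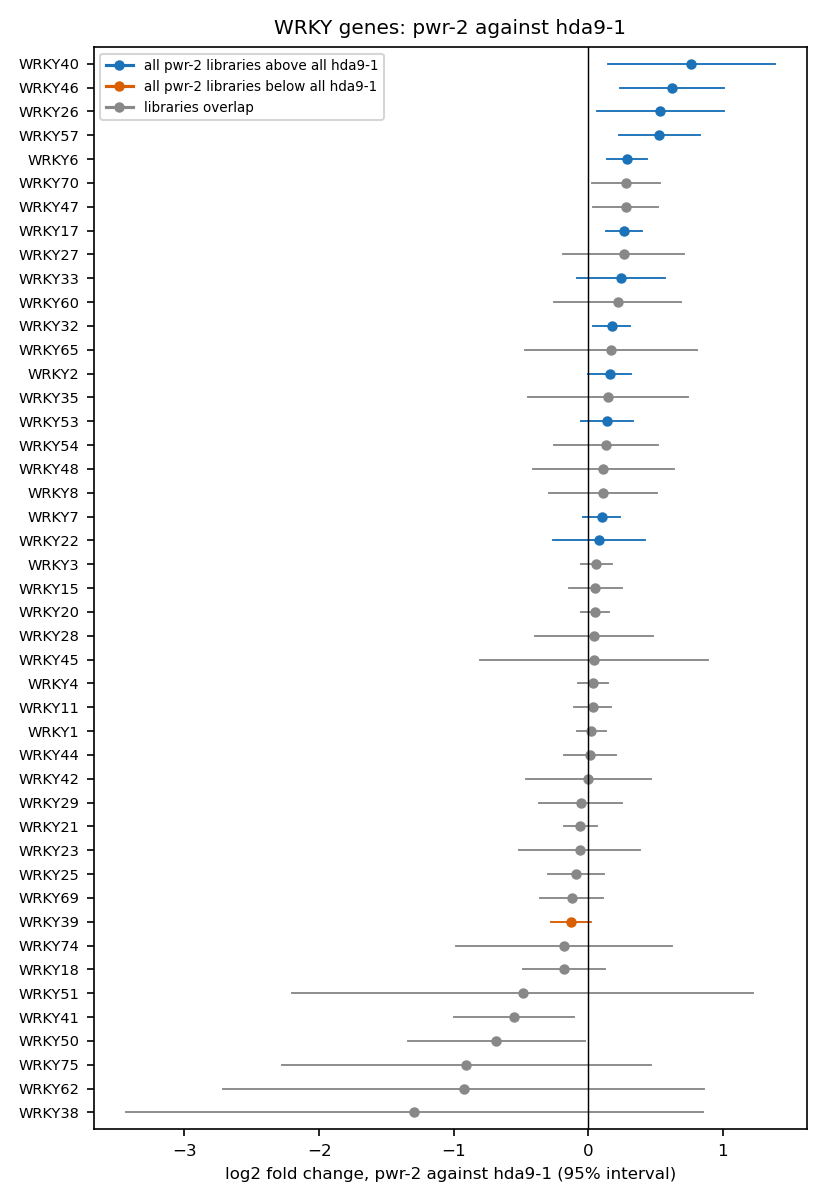
Log2 fold change of pwr-2 against hda9-1 with 95% intervals for the 45 tested WRKY genes, in order of size. Colour marks the 12 genes whose pwr-2 libraries all lie above the hda9-1 libraries, and WRKY39, whose libraries all lie below; 0 genes passed an adjusted p of 0.05.

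Of 22 further WRKY family genes, 9 were tested, and 0 were higher in either mutant (17.6% and 16% of all genes were). In hda9-1, 2 were lower, WRKY49 (log2 fold change -1.03, adjusted p = 0.00693) and WRKY14 (-0.67, adjusted p = 0.043). In pwr-2, 4 were lower: WRKY49 (-0.80, adjusted p = 0.0227), WRKY19 (-0.49, adjusted p = 0.0144), WRKY58 (-2.43, adjusted p = 0.0195) and WRKY36 (-1.09, adjusted p = 0.041). Apart from WRKY49 in hda9-1, each of these calls was lost when any of several single libraries was left out, with adjusted p-values of 0.053 to 0.151.

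Of 10 kinases above WRKY factors in immune signalling, 5 were higher and 2 lower in hda9-1 (70% called, against 34.2% of all genes), and 6 were higher and 2 lower in pwr-2 (80%, against 31.4%). This list, like the others, was chosen with earlier results of these data known. These shares are therefore not independent support for an excess. MEKK1 stood at 62.5 ± 1.2 CPM in WT, 94.4 ± 3.6 in hda9-1 and 83.1 ± 6.6 in pwr-2 (SD, n = 3). It rose by 0.59 (adjusted p = 3.32e-05) in hda9-1 and 0.41 (adjusted p = 0.000595) in pwr-2. MKK4, which activates MPK3 and MPK6, rose by 0.58 (adjusted p = 9.05e-05) and 0.67 (adjusted p = 3.86e-05). MPK3, which phosphorylates WRKY33, rose by 0.56 (adjusted p = 0.00115) and 0.59 (adjusted p = 0.00106). Their mutant libraries lay above all WT libraries in each case. MKK9, another activator of MPK3 and MPK6, stood at 40.8 ± 8.4 CPM in WT, 54.2 ± 6.0 in hda9-1 and 86.0 ± 5.0 in pwr-2. Of the 49 tested genes of the other lists, it was the only one called between the mutants, at 0.68 (adjusted p = 0.0376). That call was lost without WT replicate 2, hda9-1 replicate 1 or 2, or pwr-2 replicate 1 or 2, at log2 fold changes of 0.60 to 0.68. Against WT, MKK9 rose by 0.41 in hda9-1 (adjusted p = 0.0228), a call lost without WT replicate 1 or 2 or hda9-1 replicate 1 or 3, and by 1.09 in pwr-2 (adjusted p = 6.4e-05). MPK11 fell by 2.39 and 2.33 on the log2 scale (adjusted p = 0.00287 and 0.0035) and MKK1 by 0.46 and 0.54 (adjusted p = 0.00402 and 0.0019).

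Of 12 tested protein partners of WRKY factors, 2 were higher and 2 lower in hda9-1, and 4 were higher in pwr-2. These are 33.3% in each mutant, near the 34.2% and 31.4% of all genes. IKU1, a VQ-motif protein that binds WRKY10 in seeds, rose by 0.87 (adjusted p = 1.14e-05) and 0.84 (adjusted p = 2.16e-05). UPL5, the ubiquitin ligase of WRKY53, rose by 0.26 (adjusted p = 0.00315) and 0.31 (adjusted p = 0.00127), and VQ9, a partner of WRKY8, by 0.42 in pwr-2 (adjusted p = 0.00189). SIB1, a partner of WRKY33, fell by 0.53 in hda9-1 (adjusted p = 0.00397). Of 18 tested reported target genes, 1 was higher and 1 lower in hda9-1 (11.1%, against 34.2% of all genes), and 4 were higher and 2 lower in pwr-2 (33.3%, against 31.4%). These list members did not share a direction. PAD3, the last enzyme of camalexin synthesis and a WRKY33 target, fell by 3.53 in pwr-2 (adjusted p = 0.00707), whereas ACS6, an ethylene synthesis enzyme and also a WRKY33 target, rose by 0.86 (adjusted p = 0.00558). RD29A, a dehydration-response gene, rose by 0.27 in pwr-2 (adjusted p = 0.00926), a call lost with loess offsets. ICS1, the salicylic acid synthesis enzyme, fell by 0.38 in hda9-1 (adjusted p = 0.0278), a call lost in 6 of the alternatives.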

How the data were processed

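PolyA RNA libraries of 9 seedling samples were stranded and made with dUTP, per the labels' protocols. The authors deposited whole-number read counts per gene, with no normalization. HISAT2 and TAIR10 are named in the submitters' processing notes, and the counting tool, its strand setting and the treatment of duplicate reads are not given in the sources used here. Gene names, positions and promoter sequences come from RefSeq TAIR10.1.

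Differences were tested with edgeR 4.0.16 (R 4.3.3, limma 3.58.1): TMM factors, filterByExpr, 1 quasi-likelihood fit over 9 libraries with genotype as the term, and Benjamini-Hochberg adjustment over 20171 genes, called at 0.05. Where no other tool is named, adjusted p-values are edgeR's. Standard errors (SE) were derived from each log2 fold change and its F statistic. CPM are counts scaled to library size times TMM factor, and RPKM are CPM per kilobase of merged exons. Counting intervals and floors cover counting error only. The steps were tested on simulated data. Alternatives were RLE, upper-quartile and loess scaling, no filter, DESeq2 1.42.0, the compared groups alone, a replicate block and each library left out.

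Same-numbered WT and hda9-1 libraries deviated together (correlations of 0.36, 0.45 and 0.46 across genes). The labels do not say whether the numbers mark shared batches. A block by number within these groups was added after the data were seen. Replicates of a group differed by more than sampling noise, with a chi-square per degree of freedom of 1.60 to 4.79.

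The members and lists were chosen with earlier results of these data known. The rule names WRKY53 and WRKY57, the 3 IIa genes, up to 3 called members per subgroup by smallest adjusted p, and up to 4 called genes per other list. Genes named beyond it were chosen after their values were seen.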

Additional observations from a re-analysis of the deposited data

How the results depend on the processing

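Of 13 members called in hda9-1, 10 remained called in all 17 alternatives, and of 18 in pwr-2, 11 remained called in all 16. The exceptions were WRKY25, WRKY15 and WRKY7 in hda9-1, and WRKY2, WRKY4, WRKY40, WRKY75, WRKY50, WRKY15 and WRKY70 in pwr-2. No called member changed sign. Among members not called, 16 and 8 were called in at least 1 alternative. Members lower in hda9-1 numbered 9 with upper-quartile scaling, 5 with a replicate block over all libraries, 12 with the block in WT and hda9-1 alone, and 3 to 9 with a library left out, while those higher were 7 to 12. In pwr-2, members lower were 8 with upper-quartile scaling, 7 without the filter and 2 to 7 with a library left out, and those higher 9 to 15.

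Between the mutants, members higher were 1 when fitted alone and 0 to 1 with a library left out. All genes called numbered 85, against 158 with loess offsets, 179 without the filter, 184 with DESeq2 and 9 to 252 with a library left out. Against WT, left-out libraries gave 4932 to 7137 genes in hda9-1 and 3917 to 7581 in pwr-2. Genes of the other lists numbered 28 in hda9-1 with the WT and hda9-1 block, 11 to 18 there and 14 to 27 in pwr-2 with a library left out. Between the mutants they numbered 2 with upper-quartile, loess, no filter, DESeq2, the mutants alone or the replicate block, and 0 to 2 with a library left out.

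Same-numbered pwr-2 libraries deviated together with neither WT (correlations of -0.13 to -0.01) nor hda9-1 (-0.24 to -0.19). The replicate block over all libraries left the members in pwr-2 at 14 higher and 4 lower. Beside the calls named in the report, the block in WT and hda9-1 also called WRKY41 and WRKY45 in hda9-1 and ended none of the members' calls. Depth limits the 5 untested members most, which had 6 to 38 reads over all libraries.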
